A study of Mus musculus with 40 samples.

Results

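The comparison described here was between CD11b+ cells sorted from GL261-bearing brain hemispheres of mice treated with the integrin-blocking peptide 7aaRGD and an antibody against PD-1 (the combination, 3 samples) and the same cells of mice treated with 7aaRGD without that antibody (4 samples). It holds 7 of the 40 samples of the series, and it asks what the antibody added in animals that already received the peptide. The cells were those of the hemisphere and not of the tumour alone. Groups were taken from the sample titles, because the treatment field numbers the anti-PD-1 samples within the name of the agent, and the columns of the deposited day 28 table give the same treatments and sample numbers in shortened form. The other samples of that table, 4 vehicle and 3 anti-PD-1, gave the effect of the same antibody without the peptide.

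GL261 is a mouse glioma line, here a tdTomato+ luc+ derivative, that was implanted into the striatum of male mice aged 10 to 12 weeks. All animals carried an osmotic pump from the day of implantation that delivered either water (vehicle) or 7aaRGD into the tumour. They received intraperitoneal injections of anti-PD-1 at 10 mg/kg, or of control IgG, on days 8, 10, 12 and 14. Brains were taken on day 28, and cells carrying CD11b, an integrin chain of microglia, monocytes, macrophages, neutrophils and NK cells, were sorted and sequenced as messenger RNA. The combination samples therefore differed from the 7aaRGD samples by anti-PD-1 in place of control IgG, and all 7 shared the tumour line, the pump and the peptide. Each sample was 1 mouse. The sample titles name nude mice, whereas the methods of the study state that GL261 cells were implanted in C57BL/6J mice, which have T cells. The labels also list anti-PD-1 sample 4 and combination sample 4, which were not analysed here.

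PD-1 is an inhibitory receptor that T cells carry after activation, and its ligands PD-L1 (Cd274) and PD-L2 (Pdcd1lg2) are carried by tumour cells and by myeloid cells. Antibodies against PD-1 keep it from its ligands. Activated T cells and NK cells release interferon-gamma, which reaches myeloid cells through the receptor chains Ifngr1 and Ifngr2 and the kinases Jak1 and Jak2. Factors that these kinases activate bind the gamma-activated sequence, and complexes that hold interferon regulatory factors bind the interferon-stimulated element. Known targets are GTPases that act against pathogens inside cells, MHC molecules, Cxcl9, Cxcl10, Nos2 and Cd274 itself.

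The promoter windows of 5 genes of this response are shown because their transcripts are described below and because the windows differ in which of the binding sequences they hold. Each is 300 bases from RefSeq on GRCm38.p6, written 5′ to 3′ on the strand of the gene, from 250 bases before the annotated start to 50 after it. Capitals mark TTCNNNGAA, the letters searched for the gamma-activated sequence, and GAAANNGAA on either strand, searched as the core of the interferon-stimulated element. The windows are those of Igtp at chr11:58199306-58199605 on the plus strand, Irgm2 at chr11:58214727-58215026 on the plus strand, Tgtp2 at chr11:49064163-49064462 on the minus strand, Irf1 at chr11:53769764-53770063 on the plus strand and Cd274 at chr19:29367188-29367487 on the plus strand.
Igtp: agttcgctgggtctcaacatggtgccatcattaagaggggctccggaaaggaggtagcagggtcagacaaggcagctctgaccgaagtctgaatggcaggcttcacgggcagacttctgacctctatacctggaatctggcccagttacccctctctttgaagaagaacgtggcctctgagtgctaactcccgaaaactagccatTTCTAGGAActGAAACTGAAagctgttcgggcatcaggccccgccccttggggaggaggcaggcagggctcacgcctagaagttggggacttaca
Irgm2: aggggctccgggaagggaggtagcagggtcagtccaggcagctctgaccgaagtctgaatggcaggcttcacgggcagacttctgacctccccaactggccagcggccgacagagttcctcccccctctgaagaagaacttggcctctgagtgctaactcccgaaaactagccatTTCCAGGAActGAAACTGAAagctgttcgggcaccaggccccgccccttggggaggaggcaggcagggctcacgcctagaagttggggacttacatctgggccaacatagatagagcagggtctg
Tgtp2: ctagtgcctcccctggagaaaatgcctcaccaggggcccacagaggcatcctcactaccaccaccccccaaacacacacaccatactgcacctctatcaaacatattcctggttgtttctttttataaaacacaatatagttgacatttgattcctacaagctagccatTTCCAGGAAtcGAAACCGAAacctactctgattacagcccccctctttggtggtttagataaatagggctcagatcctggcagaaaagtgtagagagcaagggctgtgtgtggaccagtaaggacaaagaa
Irf1: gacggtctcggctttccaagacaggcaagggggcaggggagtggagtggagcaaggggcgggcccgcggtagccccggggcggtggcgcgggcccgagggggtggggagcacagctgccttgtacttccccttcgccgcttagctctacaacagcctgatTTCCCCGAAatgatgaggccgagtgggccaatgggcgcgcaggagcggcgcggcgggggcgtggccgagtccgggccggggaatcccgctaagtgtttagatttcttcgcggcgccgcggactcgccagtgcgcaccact
Cd274: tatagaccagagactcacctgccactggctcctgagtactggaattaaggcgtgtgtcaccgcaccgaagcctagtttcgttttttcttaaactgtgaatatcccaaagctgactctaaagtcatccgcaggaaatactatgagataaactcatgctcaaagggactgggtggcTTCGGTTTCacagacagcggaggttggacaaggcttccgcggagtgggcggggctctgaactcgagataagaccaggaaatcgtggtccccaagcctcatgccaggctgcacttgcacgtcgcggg

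In Igtp, Irgm2 and Tgtp2 the gamma-activated letters began at -45, -75 and -81 from the start and the interferon-stimulated letters at -34, -64 and -70. The printed Irf1 window held a gamma-activated match at -90 and no interferon-stimulated match, and that of Cd274 held an interferon-stimulated match at -76 and no gamma-activated match. Irf1 also has an annotated start with a window at chr11:53770223-53770522, not printed, which held neither. Of 27025 genes with a window, 9.55% held the gamma-activated letters and 9.76% the interferon-stimulated letters. Among the interferon-gamma-induced GTPases 11 genes had a window, 6 with the first and 10 with the second. These matches describe letters in a short window and say nothing about binding.

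Values are given as RPKM, read counts scaled by transcript length and by the number of mapped reads, a unit that was inferred from the scale of the deposited values after a constant of 2 had been subtracted from each. Whole reads could not be recovered, so the depth of the samples is unknown. Replicates of a group correlated at 0.978 to 0.992 on the log2 scale. Itgam, which encodes CD11b, was at 58.7 to 82.2 RPKM in the 7aaRGD samples and 76.3 to 81.8 RPKM in the combination samples (log2 fold change 0.22, adjusted p = 0.10, and past the threshold without 7aaRGD sample 4 at 0.016 or with median-of-ratios scaling at 0.046). Ptprc, the leukocyte marker CD45, was at 23.7 to 35.5 and 37.4 to 39.0 RPKM (log2 fold change 0.41, adjusted p = 0.022), and its adjusted p was 0.054 to 0.063 when 7aaRGD sample 1 or any of the 3 combination samples was left out. The table's log2 values spread over 9 of the 10 dimensions that 14 samples in 4 groups allow, a property that the methods do not explain and that makes every p-value here approximate.

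Adding anti-PD-1 to 7aaRGD was accompanied by a broad change in the CD11b+ transcriptome. The test covered 9737 protein-coding genes whose mean over the table was 1 RPKM or more, of which 1269 (13%) were higher in the combination and 2292 (23.5%) were lower at an adjusted p below 0.05 (limma with Benjamini-Hochberg adjustment). The changes were mostly small. The median log2 fold change was 0.50 among genes called higher and -0.38 among genes called lower, and 209 and 110 genes passed with a log2 fold change of at least 1. All samples of a group lay above all of the other in 1415 genes (14.5%) and below in 2515 (25.8%). The median of all genes was -0.068, and the split between directions depended on scaling. Of the called genes 35.6% were higher as deposited, 51.0% (1694 of them against 1629 lower) with median-of-ratios scaling and 45.0% (1546 against 1892) with quantile normalization. In sorted bulk cells a change in the share of a cell type and a change in RNA per cell cannot be told apart. Counts for gene groups below from the main fit are to be read against 13% higher and 23.5% lower. Counts under another setting have the background of that fit, such as 1083 genes higher and 1650 lower of 9734 without combination sample 3. The filter took the mean over the table, so a gene low in 1 group could be tested through another where it was high.

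**Figure D1:**
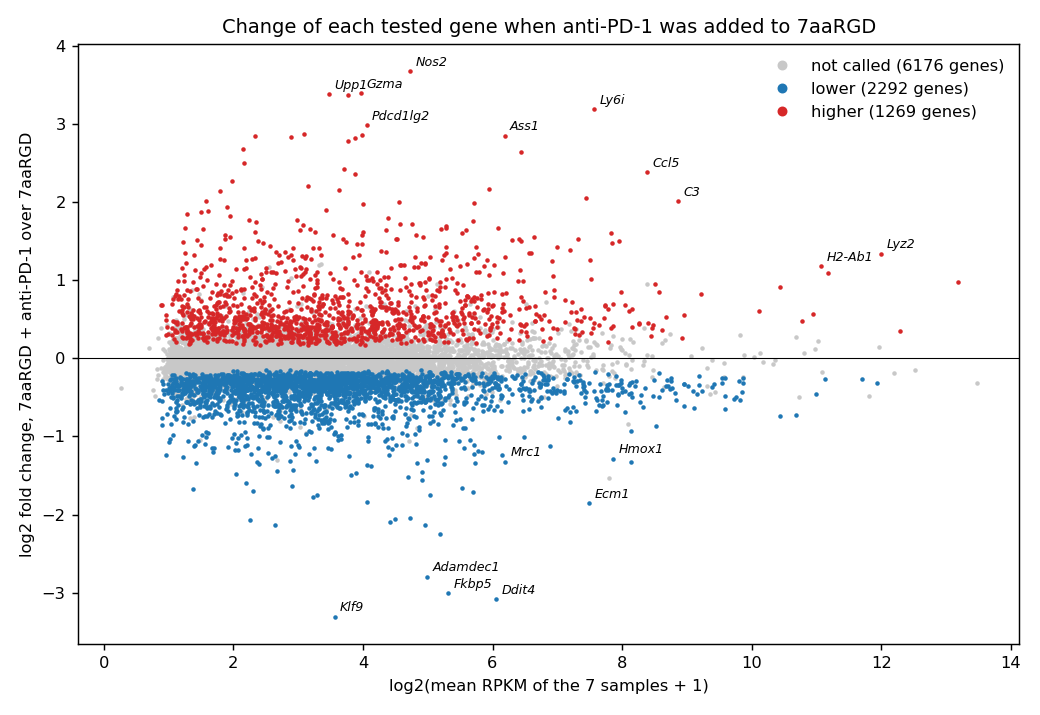
Change on adding anti-PD-1 to 7aaRGD for every gene tested. Each point is a gene, the horizontal axis is the log2 of its mean RPKM over the 7 samples plus 1, and the vertical axis is the log2 fold change of the combination over 7aaRGD. The 1269 genes called higher are red, the 2292 called lower are blue and the others are grey, and changes run from -3.30 for Klf9 to 3.67 for Nos2.

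The 12 largest rises among called genes without overlap were those of Nos2, Gzma, Upp1, Apol7c, Ly6i, Pdcd1lg2, Gzmb, Hspa1b, Ass1, Tnfrsf9, Ccl22 and Vegfa. They hold enzymes of arginine use, granzymes, a PD-1 ligand, a receptor of activated lymphocytes, a chemokine, a chaperone and an angiogenic factor. The 12 largest falls were those of Klf9, Ddit4, Fkbp5, Adamdec1, Adamtsl4, Sult1a1, Hic1, Ap1s2, Ston1, Ocstamp, Gpx3 and Ecm1. Klf9, Ddit4 and Fkbp5 are known targets of the glucocorticoid receptor. Apol7c was at 3.64, 2.20, 0.524 and 1.04 RPKM in the 7aaRGD samples and 37.1, 26.1 and 17.8 RPKM in the combination samples (log2 fold change 3.37, adjusted p = 4.3e-04). Ly6i, a Ly6 family surface protein, was at 47.7, 25.8, 77.2 and 28.9 and 440.1, 361 and 345 RPKM (log2 fold change 3.19, adjusted p = 4.6e-05). Neither gene overlapped between the groups. Adamdec1, a metalloprotease of macrophages, was at 87.1, 56.3, 19.1 and 36.0 RPKM with 7aaRGD and 4.71, 6.28 and 5.16 RPKM with the combination (log2 fold change -2.79, adjusted p = 0.0082). Ocstamp, needed for fusion of osteoclasts, was at 31.3, 53.6, 15.9 and 30.0 and 5.15, 10.1 and 5.14 RPKM (log2 fold change -2.05, adjusted p = 4.0e-04). The fold changes of Adamtsl4, Sult1a1, Hic1, Ap1s2, Ston1 and Gpx3 were -2.25, -2.14, -2.13, -2.09, -2.07 and -2.04 on the log2 scale. Since only genes without overlap were taken, each of these was lower in all 3 combination samples than in any 7aaRGD sample.

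Interferon-gamma-induced GTPases were higher in the combination. All 16 tested of 17 listed interferon-gamma-induced GTPases were called higher, none was lower, and none overlapped between the groups (median log2 fold change 1.36). Gbp2, a guanylate-binding protein, was at 124, 166, 139.8 and 113 RPKM in the 7aaRGD samples and 461, 261 and 462 RPKM in the combination samples (log2 fold change 1.5001, SE 0.21, adjusted p = 1.9e-04). Igtp, an immunity-related GTPase whose promoter is printed above, was at 47.1, 61.3, 32.6 and 44.4 RPKM and 148, 108 and 145 RPKM (log2 fold change 1.53, SE 0.21, adjusted p = 1.6e-04). The ranges of both genes were separate. Irgm2 and Tgtp2, the other GTPases with a printed window, had log2 fold changes of 1.35 and 1.64, Iigp1 of 1.42, Gbp5 of 1.66 and Irgm1, a regulator of the family, of 0.79. Tgtp1 and Tgtp2 are near-identical in sequence, as are Hspa1a and Hspa1b. The Gbp genes and the class I H2 genes are each families of similar sequence. The share of reads given to each of these genes is therefore uncertain.

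Among 16 JAK-STAT components and interferon regulatory factors, 10 were called higher and 1 lower (median log2 fold change 0.45). Irf1, an activator of MHC and GTPase genes, was at 52.4, 72.9, 49.7 and 47.6 RPKM in the 7aaRGD samples and 177, 115 and 140.0 RPKM in the combination samples (log2 fold change 1.35, SE 0.20, adjusted p = 3.2e-04). Ciita, the activator of MHC class II genes, was at 14.8, 27.0, 11.05 and 12.1 and 51.4, 44.4 and 44.8 RPKM (log2 fold change 1.55, SE 0.24, adjusted p = 4.1e-04). Both groups of samples were separate for each of these genes. Socs1, a feedback inhibitor of the kinases, rose by 1.58 on the log2 scale and Nlrc5, the activator of MHC class I genes, by 1.03. Ifngr1, the ligand-binding chain of the receptor, was the member that fell, from 194, 144, 214 and 185 RPKM to 102, 112 and 131 RPKM (log2 fold change -0.67, SE 0.13, adjusted p = 0.0016). Type I interferon response genes numbered 20, of which 19 were tested, 12 were higher and none lower (median 0.49), and 7 were higher when combination sample 1 was left out. Isg15, a ubiquitin-like modifier, rose by 1.24 and Oasl2 by 1.21 on the log2 scale, while Rsad2, an antiviral enzyme, was at 11.5 to 20.5 RPKM with 7aaRGD and 12.96 to 21.7 RPKM with the combination (log2 fold change 0.17, adjusted p = 0.56).

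Most genes of antigen presentation were higher in the combination. Of 10 MHC class II genes 9 were called higher without overlap (median log2 fold change 0.96), and of 21 class I and peptide loading genes 18 were called higher (median 0.55), with no member of either list lower. H2-Ab1, a class II beta chain, was at 1210.3, 1926, 1661 and 933 RPKM in the 7aaRGD samples and 3145, 2961 and 3270.2 RPKM in the combination samples (log2 fold change 1.18, SE 0.19, adjusted p = 4.5e-04). Cd74, the invariant chain, was at 6011, 8206, 8040.0 and 4393 and 12368, 12062 and 13791 RPKM (log2 fold change 0.98, SE 0.17, adjusted p = 9.2e-04). Every combination sample exceeded every 7aaRGD sample in both genes. H2-Eb1 rose by 1.09 on the log2 scale and H2-Oa, which restrains peptide loading, by 1.60, from 18.5 to 31.9 to 54.2 to 96.9 RPKM. The member that did not pass was Ctss, the protease that trims the invariant chain (log2 fold change -0.15, adjusted p = 0.40, and 0.013 with quantile normalization). Psmb9, an immunoproteasome subunit, was at 26.3, 29.0, 28.5 and 23.7 and 57.1, 44.5 and 52.9 RPKM (log2 fold change 0.91, SE 0.10, adjusted p = 4.3e-05). Tap1, the peptide transporter, rose by 0.65 and H2-K1 by 0.60 on the log2 scale. B2m, the light chain of class I, was at 4162 to 5188 and 5509 to 6038 RPKM (log2 fold change 0.35, adjusted p = 0.0067), but at 0.16 without the filter on low values and 0.067 with quantile normalization.

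The ligands of PD-1 and PD-1 itself were higher, and the share of tested inhibitory checkpoint genes called lower was close to the 23.5% of all genes. Of 14 tested of 19 listed inhibitory checkpoint genes, 5 were called higher (Cd274, Pdcd1lg2, Pdcd1, Pilra and Sirpa) and 4 lower (Cd276, Havcr2, Lgals9 and Vsir), none of them with overlap. Cd274 was at 34.2, 43.8, 29.2 and 27.9 RPKM in the 7aaRGD samples and 138, 80.5 and 114 RPKM in the combination samples (log2 fold change 1.67, SE 0.22, adjusted p = 1.5e-04). Pdcd1lg2 was at 5.84, 2.30, 1.67 and 2.62 and 51.9, 27.2 and 17.8 RPKM (log2 fold change 2.98, SE 0.55, adjusted p = 0.0013). Pdcd1, which encodes PD-1, was at 0.715, 1.30, 0.945 and 1.10 and 4.69, 3.67 and 2.58 RPKM (log2 fold change 1.19, SE 0.19, adjusted p = 4.4e-04). All 3 genes were separate between the groups, at low levels for PD-1. Sirpa, the receptor of the CD47 signal against phagocytosis, rose by 0.28 and Pilra by 0.74 on the log2 scale. Havcr2, which encodes TIM-3, fell from 84.1, 81.3, 85.9 and 96.1 RPKM to 57.5, 63.1 and 55.6 RPKM (log2 fold change -0.56, SE 0.12, adjusted p = 0.0041). Lgals9, a ligand of TIM-3, fell by 0.36 on the log2 scale. Cd276, which encodes B7-H3, was at 6.27, 15.9, 8.49 and 13.3 and 3.43, 5.34 and 3.15 RPKM (log2 fold change -1.22, adjusted p = 0.013), and its adjusted p was 0.051 without combination sample 1 and 0.054 without combination sample 3. Vsir, which encodes VISTA, had a log2 fold change of -0.34, and its adjusted p lay between 0.050 and 0.059 without any 1 of 7aaRGD samples 1 and 4 or the 3 combination samples. Without combination sample 1 or 3, 2 members of the list remained lower. Lag3 was at 148 to 232 and 198 to 278 RPKM (log2 fold change 0.32, adjusted p = 0.27).

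Of 12 tested of 15 listed co-stimulatory genes, 8 were called higher and none lower (median log2 fold change 0.60). Tnfrsf9, the receptor 4-1BB of activated lymphocytes and of some myeloid cells, was at 0.426, 0.171, 0.518 and 0.158 RPKM in the 7aaRGD samples and 13.7, 4.86 and 8.56 RPKM in the combination samples (log2 fold change 2.84, SE 0.25, adjusted p = 1.6e-05). Slamf8, a myeloid surface receptor, was at 23.6, 27.3, 24.7 and 22.7 and 96.2, 70.3 and 91.2 RPKM (log2 fold change 1.75, SE 0.14, adjusted p = 9.4e-06). Cd40, through which helper T cells activate antigen-presenting cells, was at 7.60, 18.6, 9.26 and 9.54 and 26.0, 19.6 and 21.8 RPKM (log2 fold change 1.003, SE 0.26, adjusted p = 0.0094). The groups did not overlap in any of the 3 genes. Cd80 rose by 0.53 and Icam1, an adhesion partner of T cell integrins, by 0.66 on the log2 scale. Cd86, which like Cd80 binds CD28, was at 40.2 to 51.4 and 51.3 to 61.6 RPKM (log2 fold change 0.29, adjusted p = 0.083).

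**Figure D2:**
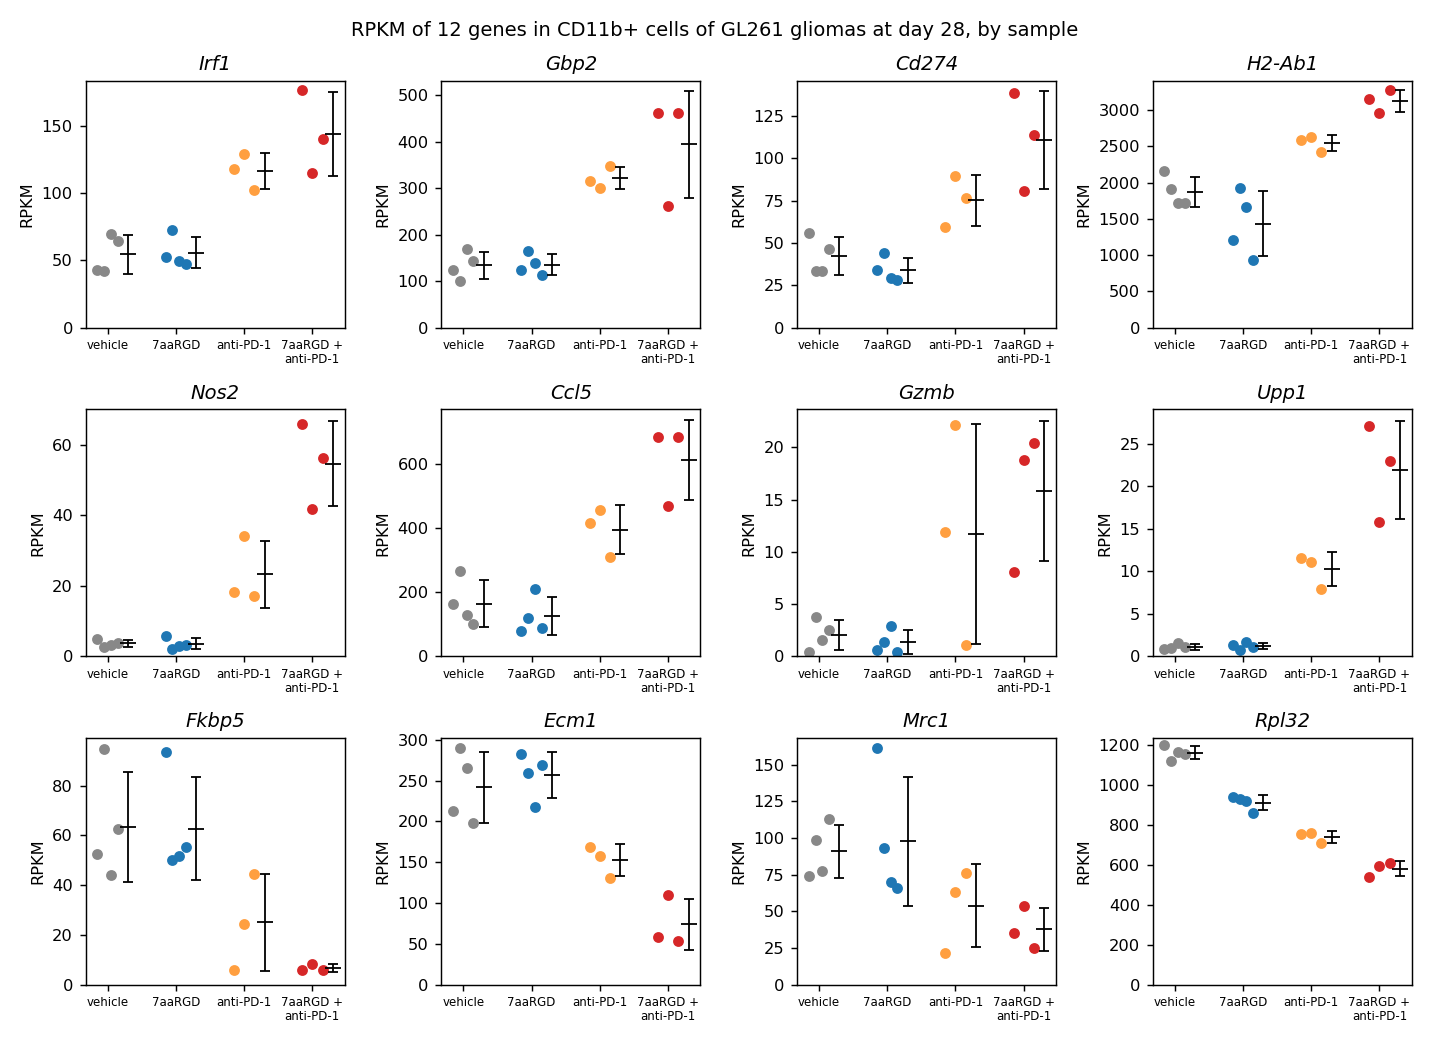
RPKM of 12 genes in each of the 14 day 28 samples, with groups on the horizontal axis and RPKM on the vertical axis of each panel. Points are samples, and black marks give the group mean and its SD. Irf1, Gbp2, Cd274, H2-Ab1, Nos2, Ccl5, Gzmb and Upp1 lie higher in the 3 combination samples than in the 4 7aaRGD samples, and Fkbp5, Ecm1, Mrc1 and Rpl32 lie lower.

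Nos2, which encodes inducible nitric oxide synthase, had the largest rise of all genes tested. It was at 5.76, 2.12, 2.92 and 3.13 RPKM in the 7aaRGD samples and 65.9, 41.8 and 56.4 RPKM in the combination samples, a mean of 3.48 ± 1.58 (SD, n = 4) against 54.7 ± 12.1 (SD, n = 3) and 15.7-fold higher (log2 fold change 3.67, SE 0.28, adjusted p = 7.6e-06). Ass1, which regenerates arginine for nitric oxide synthesis, was at 17.8, 16.3, 21.2 and 19.7 and 173, 137 and 117 RPKM (log2 fold change 2.85, SE 0.19, adjusted p = 1.9e-06). Acod1, which makes itaconate in activated macrophages, was at 24.1, 28.3, 17.1 and 23.3 and 152, 85.1 and 92.2 RPKM (log2 fold change 2.168, SE 0.26, adjusted p = 7.2e-05). These enzymes were separate between the groups. Of 18 tested of 23 listed cytokines and inflammatory enzymes, 11 were called higher and none lower (median log2 fold change 0.72). Il1b was at 113, 114, 91.6 and 152 and 448, 217 and 453 RPKM (log2 fold change 1.60, SE 0.35, adjusted p = 0.0035). Ptgs2, the inducible enzyme of prostaglandin synthesis, rose by 1.9996, Il27 by 1.15 and Il15, a growth factor of NK and CD8+ T cells, by 0.93 on the log2 scale. Tnf was at 18.6, 19.97, 19.2 and 36.4 RPKM with 7aaRGD and 55.7, 29.9 and 38.1 RPKM with the combination (log2 fold change 0.79, adjusted p = 0.072), where 7aaRGD sample 4 stood above the other 3, and its adjusted p was 0.027 without that sample.

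Chemokine genes rose in part. Of 12 CC chemokines 5 were called higher (Ccl22, Ccl5, Ccl17, Ccl7 and Ccl2), of 6 tested of 11 listed CXC chemokines 3 (Cxcl13, Cxcl10 and Cxcl9) and of 9 tested of 12 listed chemokine receptors 4 (Ccr7, Ccr2 and Ccrl2 among them), with none lower. Ccl5, which attracts T cells and NK cells, was at 79.2, 120.1, 211 and 89.0 RPKM in the 7aaRGD samples and 685, 471 and 687 RPKM in the combination samples (log2 fold change 2.38, SE 0.34, adjusted p = 2.4e-04). Ccl22, a ligand of CCR4, was at 1.501, 0.205, 2.01 and 0.826 and 14.6, 12.01 and 13.5 RPKM (log2 fold change 2.83, SE 0.33, adjusted p = 5.7e-05). Ccl17, the other CCR4 ligand, was at 13.2, 1.76, 4.41 and 1.44 and 38.3, 18.3 and 18.3 RPKM (log2 fold change 2.36, SE 0.55, adjusted p = 0.0049). The 3 combination samples were above all 7aaRGD samples in each of them. Cxcl9, a ligand of CXCR3 on effector T cells, was at 160.4, 242, 188 and 162 and 289, 362 and 361 RPKM (log2 fold change 0.85, SE 0.24, adjusted p = 0.013). Cxcl10, also a CXCR3 ligand, rose by 1.13 and Cxcl13, which attracts B cells, by 2.15 on the log2 scale. Ccl7, a monocyte attractant, was at 10.7, 12.8, 7.39 and 14.03 and 35.5, 41.5 and 38.2 RPKM (log2 fold change 1.72, SE 0.21, adjusted p = 7.2e-05). Ccr7, which guides dendritic cells to lymph nodes, was at 0.975, 0.369, 0.864 and 0.567 and 4.43, 5.92 and 5.99 RPKM (log2 fold change 1.93, SE 0.20, adjusted p = 2.9e-05).

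Other members of these lists were less stable or did not pass. Ccl2, the main ligand of CCR2, was at 31.8, 23.6, 18.7 and 39.0 RPKM in the 7aaRGD samples and 37.8, 45.5 and 48.1 RPKM in the combination samples (log2 fold change 0.66, adjusted p = 0.049). Its ranges overlapped, and its adjusted p was 0.052 to 0.142 when any sample other than 7aaRGD sample 4 was left out. Ccr2, a receptor of inflammatory monocytes, had a log2 fold change of 1.15 (adjusted p = 0.019), with 0.052 without 7aaRGD sample 3, 0.058 without combination sample 1 and 0.083 without combination sample 2. Without combination sample 2 the receptor list had 2 genes called higher. Ccrl2 rose by 1.10 on the log2 scale. Ccl8 was at 55.4 to 67.7 and 38.4 to 69.4 RPKM (log2 fold change -0.25, adjusted p = 0.72) and Cxcl16 at 180.3 to 291 and 220.3 to 254 RPKM (log2 fold change 0.13, adjusted p = 0.51).

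Transcripts of cytotoxic lymphocytes were present at low levels and were higher in the combination. All 5 tested of 11 listed cytotoxic genes (Gzma, Gzmb, Prf1, Nkg7 and Tnfsf10) were called higher without overlap, and the other 6, Ifng among them, were under the filter. Without the filter 8 of the 11 were higher, and with a filter of 5 RPKM 2 were. The filter took the mean over the table, so genes as low with 7aaRGD as Nkg7 could pass it through the samples where they were high. The counts called higher among tested cytotoxic and NK cell genes depend on that selection. Gzmb, a granzyme of CD8+ T and NK cells, was at 0.566, 1.39, 2.91 and 0.435 RPKM in the 7aaRGD samples and 8.09, 18.8 and 20.5 RPKM in the combination samples (log2 fold change 2.87, SE 0.68, adjusted p = 0.0054). Nkg7, a protein of cytotoxic granules, was at 0.212, 0.149, 1.02 and 0.308 and 3.08, 8.98 and 10.7 RPKM (log2 fold change 2.496, SE 0.50, adjusted p = 0.0020). Gzma was at 0.756, 2.01, 5.57 and 0.411 and 11.04, 44.4 and 38.002 RPKM (log2 fold change 3.39, SE 0.91, adjusted p = 0.011). Many of the 7aaRGD values of these genes were below the pseudocount of 1 RPKM, and the fold changes depend on it. The median of the cytotoxic list was 2.68 on the log2 scale, 3.97 with a pseudocount of 0.1 and 1.22 with 5. Prf1, the pore-forming protein, rose by 2.68 on the log2 scale. Of 12 listed NK cell genes 6 were tested and all 6 were called higher (10 without the filter, 1 with 5 RPKM), among them Il2rb (2.13) and Klrk1 (1.15). The summed RPKM of the NK list was 1.85 to 10.4 in the 7aaRGD samples and 24.9 to 75.8 in the combination samples. Of 17 T cell genes 1, the interleukin-7 receptor gene Il7r, was tested and called higher (1.04), and 12 were higher without the filter. The summed T cell list was 3.83 to 5.32 RPKM with 7aaRGD and 13.8 to 19.6 RPKM with the combination, and the CD3 chains were all under the mean of 1 RPKM.

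Genes listed for the tumour-supportive state were called in both directions, and the share called lower was near the 23.5% of all genes. Of 14 tested of 18 listed genes of alternative activation and arginine metabolism, 5 were called higher (Pdcd1lg2, Mgl2, Tgm2, Arg2 and Clec10a) and 3 lower (Ecm1, Mrc1 and Il4ra). Ecm1, an extracellular matrix protein, was at 283, 259, 217 and 269 RPKM in the 7aaRGD samples and 58.7, 109.9 and 53.5 RPKM in the combination samples (log2 fold change -1.85, SE 0.21, adjusted p = 4.8e-05). Mrc1, the mannose receptor CD206, was at 161, 93.6, 70.4 and 66.3 and 35.1, 53.6 and 24.8 RPKM (log2 fold change -1.32, SE 0.40, adjusted p = 0.020). Both were separate between the groups, but the adjusted p of Mrc1 was 0.055 without 7aaRGD sample 1, 0.059 without combination sample 1 and 0.094 without combination sample 3. Arg1, the arginase of alternatively activated macrophages, was at 407, 132, 163 and 227 and 802, 377 and 228 RPKM (log2 fold change 0.96, adjusted p = 0.24). Chil3 was at 745, 74.9, 126 and 338 and 163, 70.1 and 38.3 RPKM (log2 fold change -1.53, adjusted p = 0.15). The ranges of both genes overlapped. Mgl2, a lectin of dendritic cells and macrophages, rose by 1.65 and Tgm2, a transglutaminase, by 1.48 on the log2 scale.

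The targets of the peptide are integrins that bind the RGD motif of matrix proteins such as osteopontin (Spp1). Of 18 tested of 21 listed integrin subunits and ligands, 4 were called higher (Itgb7, Itgb2, Itgal and Itgb1) and 2 lower (Postn and Itga6). The 2 lower are a smaller share than the 23.5% of all genes. Without combination sample 2 the calls of Itgal and Itgb1 were lost (adjusted p = 0.058 and 0.069). The RGD-binding subunits Itgav, Itgb3 and Itgb5 did not pass. Itgav was at 10.3 to 14.4 RPKM with 7aaRGD and 10.2 to 12.4 RPKM with the combination (log2 fold change -0.098, adjusted p = 0.46), Itgb3 at 1.58 to 8.16 and 2.85 to 4.65 RPKM (log2 fold change -0.19, adjusted p = 0.68) and Itgb5 at 310.0 to 427 and 303 to 351 RPKM (log2 fold change -0.15, adjusted p = 0.31). Spp1 was at 339.9, 269, 189 and 541 RPKM and 165, 278 and 111 RPKM (log2 fold change -0.85, adjusted p = 0.074). It was past the threshold without 7aaRGD sample 3 (0.027) and without combination sample 2 (0.025). Itgb7, which pairs with alpha 4 on leukocytes, rose by 1.02 on the log2 scale, Itga6 fell by 0.76 and Postn, a matrix ligand, fell by 0.98. Of 21 tested of 23 listed genes of disease-associated and lipid-handling phagocytes, 2 were called higher (Fabp5 and Plin2) and 2 lower, Cd63 (-1.12) and Ctsl (-0.76), with 4 lower without combination sample 2. The 2 higher and 2 lower with all samples are smaller shares than the 13% and 23.5% of all genes. The call of Fabp5 was lost without 7aaRGD sample 2, 3 or 4 or combination sample 1 or 2 (adjusted p = 0.072 to 0.199), and that of Plin2 without 7aaRGD sample 3 or 4 or combination sample 2 or 3 (0.057 to 0.192). Gpnmb was at 94.0 to 133 and 68.2 to 122 RPKM (log2 fold change -0.32, adjusted p = 0.31).

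**Figure D3:**
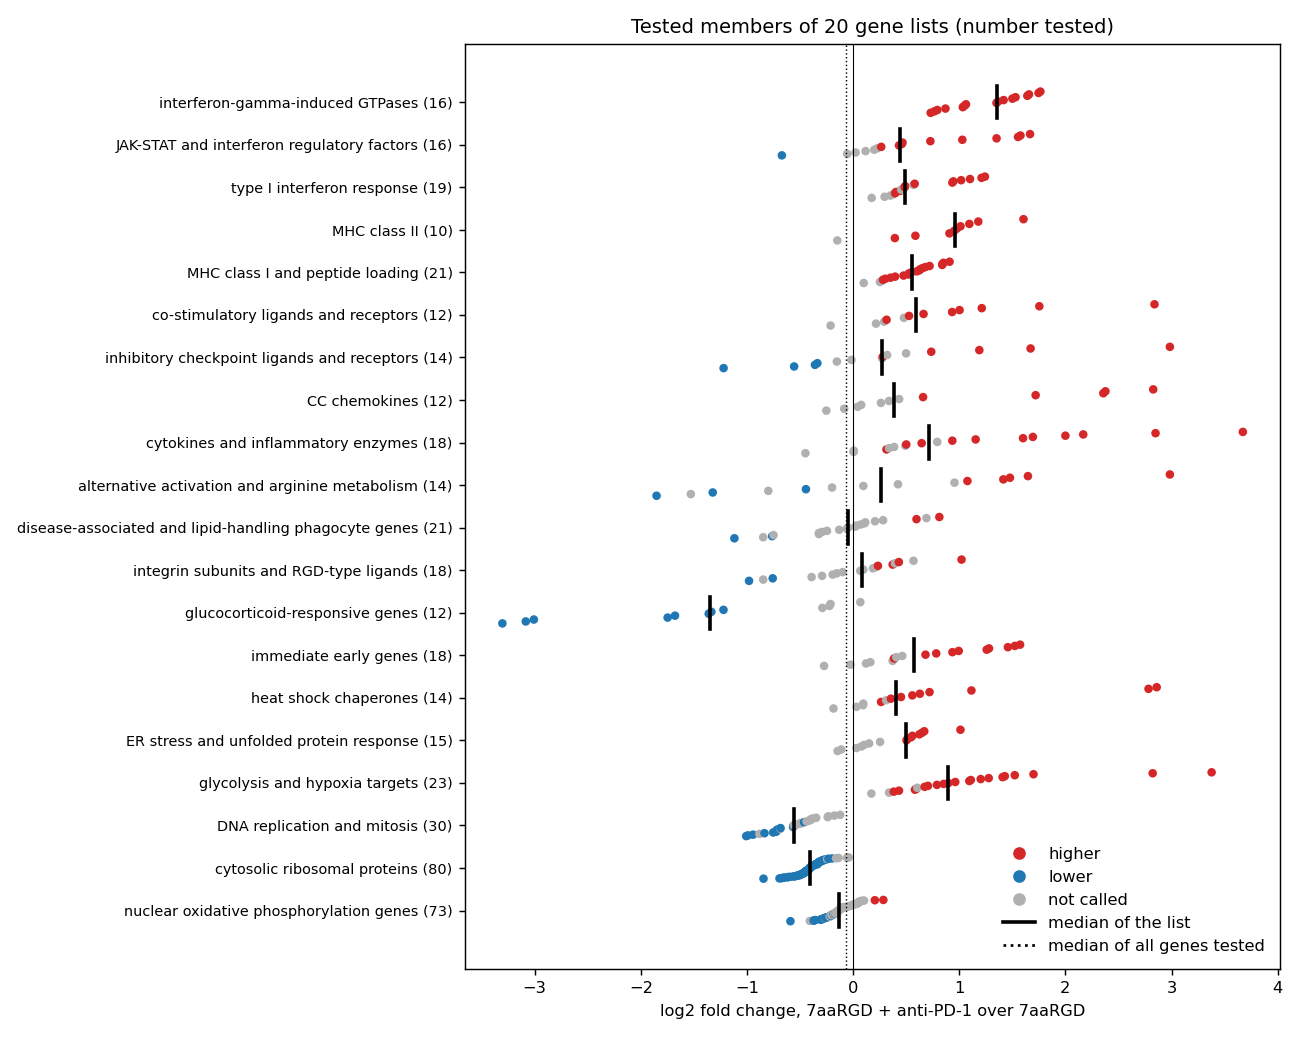
Log2 fold change of the combination over 7aaRGD (horizontal axis) for the tested members of 20 gene lists (rows). Each point is a gene, a black bar is the list median and the dotted line is the median of all 9737 genes, -0.068. Interferon-induced GTPases, MHC genes and glycolysis genes lie to the right of the line, and ribosomal protein and glucocorticoid-responsive genes lie to the left.

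Most of the glucocorticoid-responsive genes tested were lower in the combination. Of 12 tested of 14 listed members, 8 were called lower without overlap and none higher (median log2 fold change -1.35). Fkbp5, a co-chaperone of the glucocorticoid receptor, was at 93.5, 50.2, 51.5 and 55.5 RPKM in the 7aaRGD samples and 5.71, 8.46 and 6.06 RPKM in the combination samples (log2 fold change -3.01, SE 0.47, adjusted p = 4.5e-04). Klf9, a transcription factor induced by glucocorticoids, was at 21.7, 12.7, 22.5 and 16.2 and 0.971, 0.698 and 1.06 RPKM (log2 fold change -3.30, SE 0.32, adjusted p = 2.4e-05). Ddit4, an inhibitor of mTORC1, was at 111, 87.2, 126 and 99.0 and 10.5, 11.9 and 12.1 RPKM (log2 fold change -3.08, SE 0.36, adjusted p = 5.7e-05). The 7aaRGD values were all above the combination values, with 7aaRGD sample 1 the highest for Fkbp5. Tsc22d3, which encodes GILZ, was at 48.7, 35.9, 57.9 and 41.6 and 9.71, 16.3 and 13.2 RPKM (log2 fold change -1.75, SE 0.32, adjusted p = 0.0012). The clock gene Per1 fell by 1.34 and the metallothioneins Mt1 and Mt2 fell by 1.22 and 1.36 on the log2 scale. Dusp1 was at 65.8 to 117 and 57.5 to 121 RPKM (log2 fold change -0.29, adjusted p = 0.39) and Sgk1 at 66.9 to 79.7 and 54.7 to 72.6 RPKM (log2 fold change -0.22, adjusted p = 0.30).

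Part of the immediate early and chaperone genes, which respond within minutes to hours of stimulation or heat and are also known to respond to cell isolation, were higher. Of 18 tested of 19 listed immediate early genes, 10 were called higher and none lower (6 without combination sample 3). Nr4a2, a nuclear receptor, was at 1.03, 0.812, 0.963 and 1.04 RPKM in the 7aaRGD samples and 5.14, 3.74 and 5.80 RPKM in the combination samples (log2 fold change 1.57, SE 0.17, adjusted p = 3.7e-05). Egr2 rose by 1.52 and Fosb by 1.46 on the log2 scale. Of 14 tested of 16 listed heat shock chaperones, 9 were higher and none lower (5 without combination sample 2). Hspa1b, an inducible HSP70, was at 2.27, 3.84, 2.01 and 1.84 and 7.64, 29.7 and 56.1 RPKM (log2 fold change 2.86, SE 0.53, adjusted p = 0.0013). Hspa1a, its near-identical partner, was at 2.25, 2.38, 1.76 and 1.93 and 6.43, 24.1 and 49.6 RPKM (log2 fold change 2.78, SE 0.53, adjusted p = 0.0016), and Hsph1 rose by 1.11 on the log2 scale. The part that handling of the cells had in these values was not tested. Of 15 tested of 16 listed genes of the unfolded protein response 8 were higher and none lower, with Hspa5, the main chaperone of the endoplasmic reticulum, up by 0.67 and Creld2 by 1.01 on the log2 scale, while Xbp1 was at 50.7 to 73.4 and 64.7 to 70.6 RPKM (log2 fold change 0.15, adjusted p = 0.34).

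Most glycolysis genes and targets of the hypoxia-inducible factors rose, and most genes of cytosolic ribosomes fell. Of 23 tested of 24 listed glycolysis and hypoxia genes, 20 were called higher and none lower (median log2 fold change 0.90). Upp1, which splits uridine into uracil and ribose phosphate, was at 1.27, 0.706, 1.68 and 1.11 RPKM in the 7aaRGD samples and 27.2, 15.8 and 22.95 RPKM in the combination samples (log2 fold change 3.38, SE 0.19, adjusted p = 1.2e-06). Vegfa was at 4.52, 1.54, 4.49 and 2.32 and 30.6, 22.2 and 29.8 RPKM (log2 fold change 2.82, SE 0.47, adjusted p = 6.4e-04). Slc2a1, the glucose transporter GLUT1, was at 38.5, 29.7, 26.8 and 31.2 and 85.2, 75.9 and 71.4 RPKM (log2 fold change 1.28, SE 0.17, adjusted p = 1.5e-04). All 3 genes were separate between the groups. Slc16a3, which exports lactate, rose by 1.52, Tpi1 by 1.43, Pgk1 by 1.09 and Gapdh by 0.38 on the log2 scale.

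Of 80 tested of 83 listed cytosolic ribosomal protein genes, 75 were called lower and none higher (median log2 fold change -0.41). Rpl32 was at 939, 927, 917 and 858 RPKM in the 7aaRGD samples and 536, 594 and 607 RPKM in the combination samples (log2 fold change -0.65, SE 0.062, adjusted p = 2.1e-05). Rplp1 was at 2356, 2335, 2279 and 2281 and 1585, 1721 and 1757 RPKM (log2 fold change -0.46, SE 0.058, adjusted p = 1.0e-04). The 7aaRGD samples lay above the combination samples in both. With median-of-ratios scaling the median of the list was -0.34, the same direction as with the deposited scaling. Mitochondrial ribosomal proteins (33 of 76 tested lower, 1 higher), nuclear genes of oxidative phosphorylation (18 of 73 lower, 2 higher) and constitutive proteasome subunits (6 of 31 lower, none higher) had smaller medians of -0.18, -0.13 and -0.11. With median-of-ratios scaling these were -0.12, -0.066 and -0.038, with 24, 12 and 4 genes lower and 2, 4 and 2 higher. Without combination sample 3 the numbers lower were 20, 11 and 3, in a fit that called 1650 of 9734 genes lower. With all samples the oxidative phosphorylation and proteasome shares were near the 23.5% of all genes or under it. Mrpl2, a mitochondrial ribosomal protein, fell by 0.51, Cox4i1, a subunit of cytochrome c oxidase, by 0.30 and Psmc1, a proteasome ATPase, by 0.60 on the log2 scale.

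Genes of DNA replication and mitosis had negative log2 fold changes in all 30 tested members of 32, and 13 were called lower (median -0.56, or -0.30 with a pseudocount of 5). In 4 of the 30 all combination samples lay below all 7aaRGD samples, a smaller share than the 25.8% of all genes. This count was among the least stable. It was 1 without combination sample 1, 6 without combination sample 3, 8, 25 and 7 without 7aaRGD samples 2, 3 and 4, 5 with the replicate block and 1 among genes of at least 5 RPKM. Cdc20, an activator of the anaphase-promoting complex, was at 7.86, 6.07, 4.62 and 6.56 RPKM in the 7aaRGD samples and 1.84, 3.70 and 2.42 RPKM in the combination samples (log2 fold change -1.01, SE 0.21, adjusted p = 0.0029). It was 1 of those 4 genes, although all its values were low.

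Receptors and effectors of innate recognition changed unevenly. Of 13 tested of 14 listed complement genes, 3 were called higher (C3, Cfp and Cfb) and 2 lower (C1qb and C1qc, neither of them with median-of-ratios scaling, and C1qc not without combination sample 1 or 2, at adjusted p = 0.067 and 0.055). C3, the central complement protein, was at 189, 201, 279 and 142 RPKM in the 7aaRGD samples and 1024, 692 and 715 RPKM in the combination samples (log2 fold change 2.01, SE 0.22, adjusted p = 4.5e-05). Cfp, properdin, was at 56.3, 54.6, 54.1 and 48.9 and 169, 168 and 139 RPKM (log2 fold change 1.55, SE 0.22, adjusted p = 2.5e-04). C1qb was at 3943 to 4635 and 3279 to 3734 RPKM (log2 fold change -0.32, adjusted p = 0.011, but 0.16 without the filter and 0.12 with quantile normalization). C3 and Cfp were thus higher without overlap, and C1qb had the smaller change of the 3 genes. Of 20 Toll-like receptor and NF-kB genes 8 were higher and 2 lower. Tlr7, a receptor for single-stranded RNA, fell from 105, 68.2, 101 and 99.7 RPKM to 33.7, 38.4 and 44.3 RPKM (log2 fold change -1.24, SE 0.20, adjusted p = 4.5e-04), Tlr13 fell by 1.01 on the log2 scale, Tlr2 rose by 0.74 and Nfkb2 rose by 1.16. Of 7 tested of 8 listed Fc receptor genes, Fcgr1, the high-affinity IgG receptor, rose by 0.43 and Fcgr3 fell by 0.54 (adjusted p = 0.0092, and 0.088 with quantile normalization).

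Of 15 tested of 17 listed iron and NRF2 target genes, 5 were lower (3 without combination sample 1) and 2 higher. Hmox1, which degrades heme, was at 481, 281, 185 and 303 RPKM in the 7aaRGD samples and 81.4, 149.8 and 143 RPKM in the combination samples (log2 fold change -1.29, SE 0.36, adjusted p = 0.013), with an adjusted p of 0.074 without combination sample 1. Fth1, the ferritin heavy chain, rose by 0.56 on the log2 scale. Both genes were separate between the groups. Of 15 tested of 17 listed genes of sterol synthesis and efflux, 6 were higher and none lower, among them Nr1h3, which encodes LXR alpha (1.04). Of 24 lysosomal genes 6 were lower (2 without combination sample 1 and 3 without combination sample 3) and 2 higher.

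The myeloid cell type marker lists each held a few called genes, and most of their members were not called. Of 13 monocyte genes 4 were called higher (Plac8, Ly6c2, Ccr2 and Ms4a4c) and none lower, with a list median log2 fold change of 0.19. Chil3, also on this list, had its lowest log2 fold change (-1.53) and no call. Ly6c2, the Ly6C antigen, was at 35.4, 9.35, 29.2 and 21.9 RPKM in the 7aaRGD samples and 99.7, 82.0 and 84.2 RPKM in the combination samples (log2 fold change 1.98, SE 0.37, adjusted p = 0.0013). Plac8 was at 21.7, 14.9, 30.7 and 35.9 and 222, 103 and 170.5 RPKM (log2 fold change 2.63, SE 0.34, adjusted p = 1.1e-04). Without 7aaRGD sample 3 or combination sample 1 the list had 2 calls, and Ms4a4c had no call without 7aaRGD sample 1 or 3 or any 1 combination sample (adjusted p = 0.054 to 0.072). Without combination sample 2 the list had 3 genes higher and 1 lower. The summed monocyte list overlapped between groups, at 365 to 1128 RPKM with 7aaRGD and 591 to 873 RPKM with the combination. Of 15 homeostatic microglia genes 4 were higher and none lower, namely Gpr34 (0.72), Gpr84 (1.10), Slc2a5 (0.99) and Olfml3 (0.74). Without combination sample 1 only Gpr34 was called, and with 1 sample left out Olfml3 was called only without 7aaRGD sample 4. With all samples its adjusted p was 0.046, but 0.080 without the filter on low values, 0.054 with quantile normalization and 0.061 with the replicate block. The defining microglial gene Tmem119 was at 260.0 to 442 and 295 to 328 RPKM (log2 fold change -0.039, adjusted p = 0.89). Of 10 macrophage genes Mrc1, Cd63 and Mertk were lower (1 gene without 7aaRGD sample 1 or combination samples 1 or 3). The median log2 fold change of the macrophage list was -0.059, close to the -0.068 of all genes. Mertk had no call when any sample other than 7aaRGD sample 4 was left out (adjusted p = 0.053 to 0.125). Adgre1, which encodes F4/80, was at 129 to 178 and 167 to 210.3 RPKM (log2 fold change 0.23, adjusted p = 0.13). Of 7 tested of 10 listed border-associated macrophage genes 2 were lower, Mrc1 and Colec12, the latter with no call without 7aaRGD sample 1 or 4 or any 1 combination sample (adjusted p = 0.051 to 0.070).

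Markers of other cells were low or mixed. The summed dendritic cell list, with 4 of 7 tested genes higher (Cd209a, Ccr7, Fscn1 and Bst2), was 321 to 382 RPKM with 7aaRGD and 450 to 513 RPKM with the combination. It holds Siglech, which is also on the homeostatic microglia list and had no call, so the sum is not specific to dendritic cells. Bst2 rose by 0.395 on the log2 scale, and the part of each member in the sum was not tested. The summed list of B and plasma cells was 25.3 to 45.8 and 89.9 to 100.7 RPKM, although its only tested member, Cd79b, had no call and the immunoglobulin genes are not of the protein-coding class. Neutrophil markers overlapped, with sums of 129 to 384 and 204 to 351 RPKM, Csf3r higher (0.56) and Retnlg and Lcn2 lower. Both of the latter had no call without 7aaRGD sample 1, 3 or 4 or combination sample 2 or 3 (adjusted p = 0.062 to 0.132 for Retnlg and 0.056 to 0.133 for Lcn2). Endothelial and pericyte markers summed to 7.44 to 12.2 and 17.1 to 23.2 RPKM. Of 3 tested of 10 listed, Pecam1 (1.32) and Flt1 (1.498) were higher and Kdr had no call. Oligodendrocyte markers summed to 50.8 to 53.6 and 49.1 to 55.0 RPKM, with Olig1 (-1.43), Olig2 and Sox10 (-1.12) lower and Mag and Cnp higher. Mag had no call without 7aaRGD sample 2 or 3 or combination sample 1 or 3 (adjusted p = 0.051 to 0.108). Neuronal markers summed to 3.99 to 6.34 and 3.45 to 4.07 RPKM and erythroid markers to 0.586 to 5.33 and 1.47 to 4.07 RPKM, and 2 of 5 tested astrocyte genes passed, Aldoc higher (1.41) and S100b lower (-0.57). The part of lymphocyte, B cell, dendritic cell and endothelial transcripts in the other results was not tested.

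**Figure D4:**
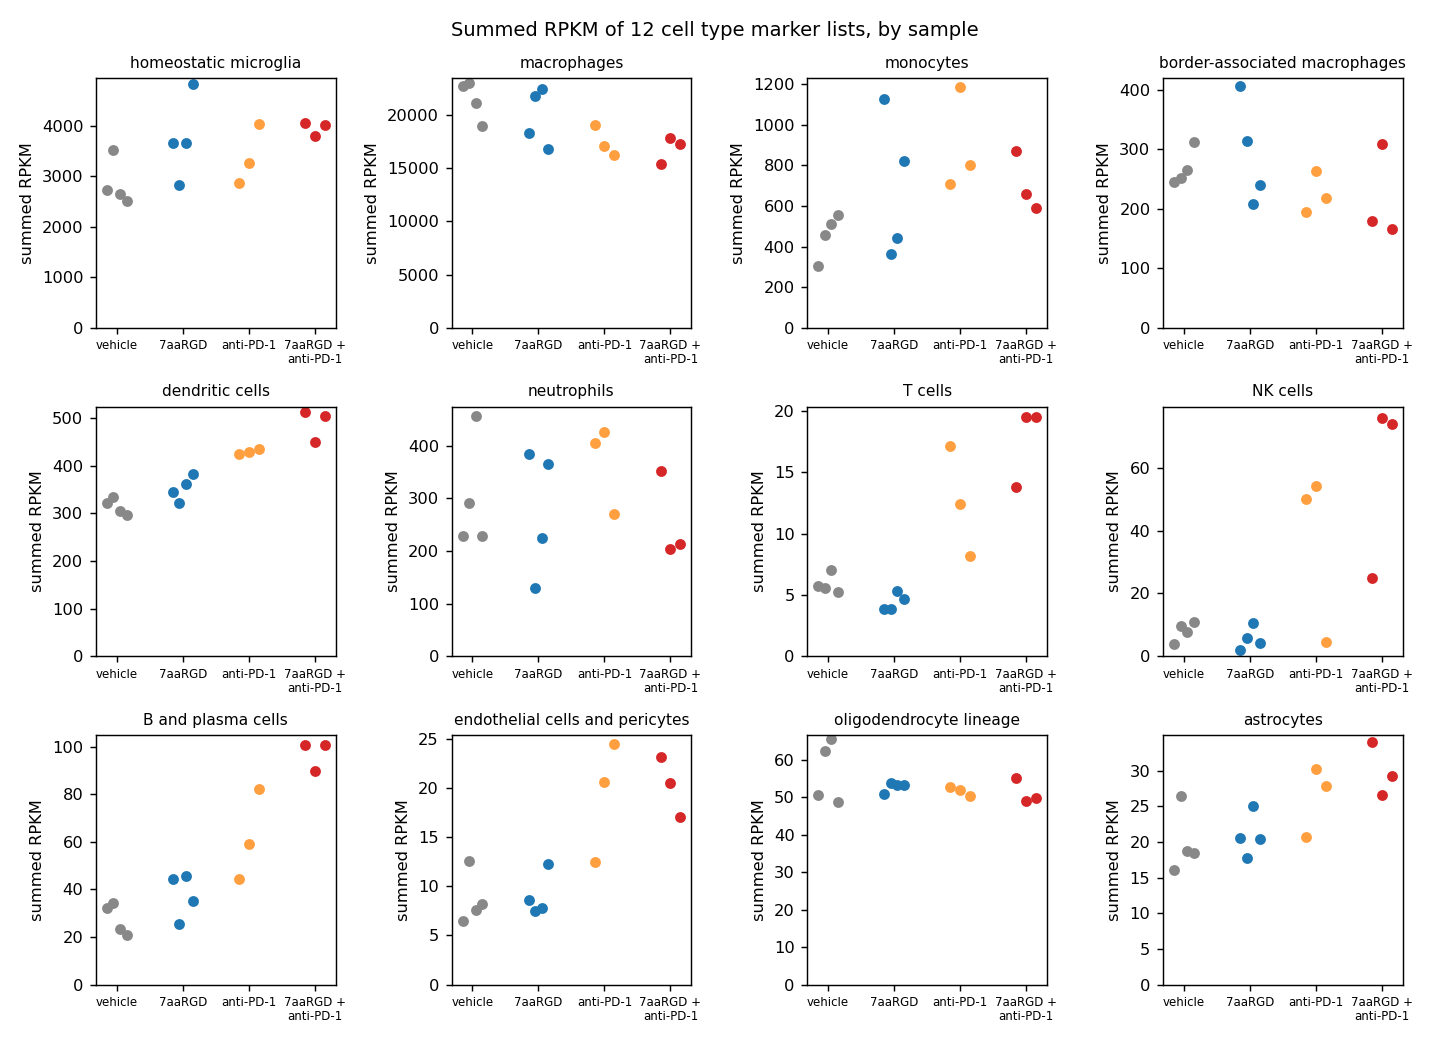
Summed RPKM of 12 cell type marker lists in the 14 day 28 samples, with groups on the horizontal axis and summed RPKM, from 0, on the vertical axis. Each point is a sample. The T, NK and B cell sums are higher in every combination sample than in every 7aaRGD sample, and the monocyte and neutrophil sums overlap.

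The study names 32 genes for the combination at day 28, a list chosen on these samples and so no independent evidence. It names them from comparisons with vehicle or with anti-PD-1 alone, so the counts here answer another comparison. Of 31 tested, 21 were higher and 4 lower than with 7aaRGD, among the latter Ocstamp, Fkbp5, Ecm1 and Mrc1. The members that did not pass were Cd86, Ccl8, Chil3, Gpnmb, Vcan (log2 fold change 0.42, adjusted p = 0.25) and Ms4a7. Il2ra, a chain of the high-affinity interleukin-2 receptor, was under the filter.

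The same antibody was compared with control IgG in animals without peptide, with other samples in both groups. There 1053 genes (10.8%) were higher and 1191 (12.2%) lower. Of the 1269 genes higher with the combination 60.2% were also higher there, 764 genes that made up 72.6% of the 1053, and 43.9% of the 2292 lower genes fell there too, 1007 genes or 84.6% of the 1191. No gene was called in opposite directions. Across all 9737 genes, which are not independent of each other, the effects had a Pearson correlation of 0.841 and a Spearman correlation of 0.805, and 79.9% had the same sign. Nos2 was at 4.98, 2.67, 3.18 and 3.59 RPKM in the vehicle samples and 18.3, 34.1 and 17.2 RPKM in the anti-PD-1 samples (log2 fold change 2.35, adjusted p = 1.6e-04). Fkbp5 was at 52.4, 94.6, 44.1 and 62.7 and 5.98, 24.3 and 44.6 RPKM (log2 fold change -1.63, adjusted p = 0.026). Both moved the same way with and without the peptide.

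**Figure D5:**
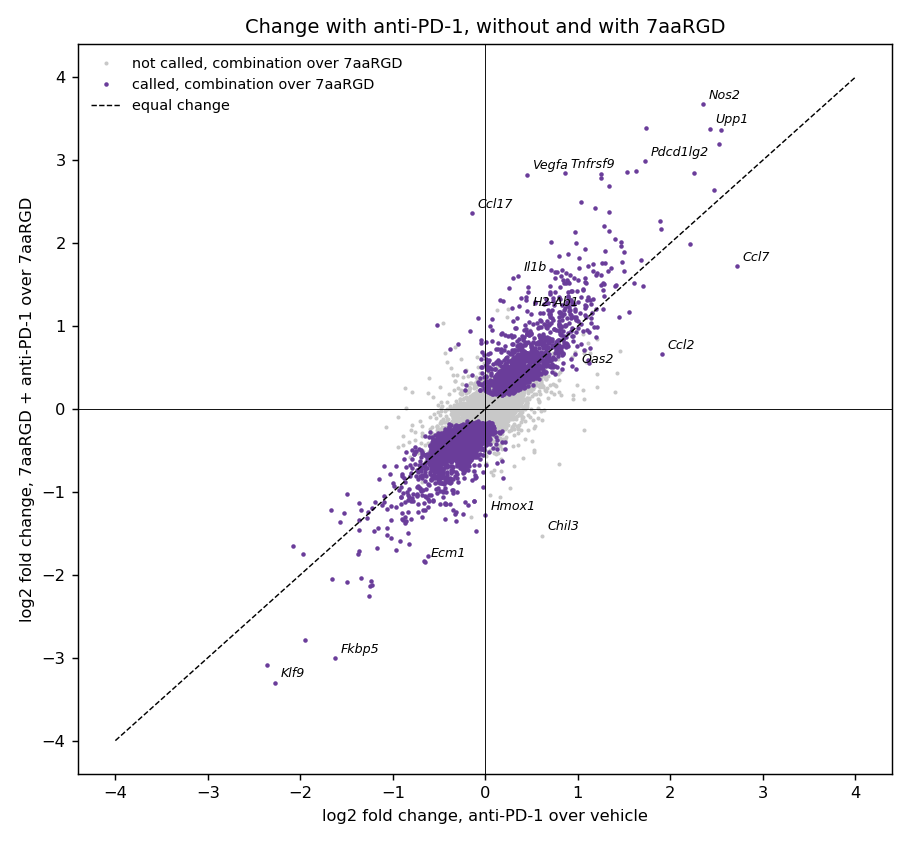
Log2 fold change on anti-PD-1 without the peptide (horizontal axis, anti-PD-1 over vehicle) and with it (vertical axis, combination over 7aaRGD). Each point is a gene tested, and the dashed line marks equal change. Purple points are the 1269 genes higher and 2292 lower in the combination over 7aaRGD, whether or not called without the peptide. Of these, 764 were also higher and 1007 also lower with anti-PD-1 over vehicle, and none was called in opposite directions.

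Whether the effect of the antibody differed with the peptide was tested directly as an interaction. No gene passed the adjusted threshold in limma (lowest adjusted p = 0.28), against 794 at an unadjusted p below 0.05, and with a median SE of 0.14 on the log2 scale a difference of moderate size could be missed. Without combination sample 2, 3 genes passed, Tnfrsf11a, Ecm1 and Tnfrsf9. Some genes had large differences that did not pass. The rise of Vegfa was 2.82 with the peptide and 0.45 without it on the log2 scale, a difference of 2.37 with a 95% interval of 0.94 to 3.81 (adjusted p = 0.59). For Ccl17 the values were 2.36 and -0.15, a difference of 2.504 with an interval of 0.84 to 4.17 (adjusted p = 0.59). For Nos2 they were 3.67 and 2.35, a difference of 1.32 with an interval of 0.48 to 2.16 (adjusted p = 0.59). Each interval shows how wide a range of differences these samples allow.

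The genes with the smallest interaction p in each direction were Insl6, Nr4a2 and Tnfrsf9, whose changes were more positive with the peptide, and Prkcb, Tnfrsf11a and Ugt1a7c, whose changes were more negative. Nr4a2 was at 1.39, 1.33, 1.76 and 0.796 RPKM with vehicle and 2.03, 2.38 and 1.18 RPKM with anti-PD-1, against the rise with the peptide described above (difference 1.28, 95% interval 0.77 to 1.78, adjusted p = 0.28). Tnfrsf11a, the receptor RANK, was at 18.7, 18.7, 18.3 and 18.9 and 14.5, 14.3 and 16.4 RPKM without the peptide and at 22.9, 23.6, 21.5 and 21.3 and 10.7, 13.2 and 11.2 RPKM with it (difference -0.59, 95% interval -0.81 to -0.36, adjusted p = 0.28). Prkcb, a protein kinase C, was at 18.8, 18.2, 16.8 and 19.2 and 15.1, 15.2 and 16.8 RPKM without the peptide and at 21.3, 22.9, 22.2 and 22.8 and 12.8, 13.6 and 14.3 RPKM with it (difference -0.47, 95% interval -0.67 to -0.28). These 3 genes were chosen by the test that is reported for them. Insl6 changed by 1.35 with the peptide and 0.44 without it on the log2 scale, and Ugt1a7c by -0.78 and -0.24.

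Gene groups had the following medians without and with the peptide. Interferon-gamma-induced GTPases had medians of 0.91 and 1.36 on the log2 scale (13 and 16 higher), MHC class II genes 0.24 and 0.96 (2 and 9 higher), glycolysis and hypoxia genes 0.50 and 0.90 (18 and 20 higher), type I interferon genes 0.72 and 0.49 (17 and 12 higher), CC chemokines 1.14 and 0.39 (5 and 5 higher), glucocorticoid-responsive genes -1.37 and -1.35 (8 and 8 lower) and cytosolic ribosomal proteins -0.48 and -0.41 (76 and 75 lower). H2-Ab1 was at 2156, 1905, 1716 and 1714 RPKM in the vehicle samples and 2585, 2630.2 and 2427 RPKM in the anti-PD-1 samples (log2 fold change 0.45, adjusted p = 0.099), a difference from the effect with the peptide of 0.73 (95% interval 0.16 to 1.30, adjusted p = 0.59). Gzmb was at 0.402, 3.70, 1.53 and 2.49 RPKM with vehicle and 11.9, 22.2 and 1.08 RPKM with anti-PD-1 (log2 fold change 1.63, adjusted p = 0.0999), with anti-PD-1 sample 3 the lowest of its group. The CC chemokine median with the peptide was 0.59, 0.24, 0.21 and 0.68 without 7aaRGD samples 1, 2, 3 and 4. No group median was tested against another.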

How the data were processed

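CD11b+ cells were sorted from GL261-bearing brains by flow cytometry, and stranded messenger RNA libraries were made from them. Per the labels and the methods of the study, reads were trimmed with Trimmomatic, aligned with STAR to mm10 and counted with HTSeq (version 0.11.1), and the authors deposited a normalized table, whose values were read here as RPKM plus a constant of 2, since no source used here names the unit. Of its rows, 49.8% held exactly 2 in every sample, and values minus 2, times transcript length, summed to 98.8% to 100.7% of the expected total. The constant was subtracted, and some low values became slightly negative. The depth was unknown, so no counting error could be given.

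Of 54513 rows 98.8% were matched to the annotation by symbol, and a protein-coding gene was kept where its mean over the table reached 1 RPKM. log2(RPKM + 1) was fitted for 14 samples in 4 groups with limma 3.58.1 (R 4.3.3, moderated test with a mean-variance trend, 10 residual degrees of freedom), with Benjamini-Hochberg adjustment over all 9737 genes. Fold changes are on that log2 scale and understate low genes. The contrasts were combination minus 7aaRGD, anti-PD-1 minus vehicle, and their difference. The scripts were tested on simulated data.

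Gene lists (46) and members were chosen with earlier results of these data known. Named genes were the 12 largest rises and falls without overlap, up to 4 members per list by p and 2 by level, the genes the study names, and 3 per direction by interaction p with Pdcd1, Cd274, Pdcd1lg2, Itgam and Ptprc. Members named for counts of 5 or fewer or for their role (Itgav, Itgb3, Itgb5, Spp1, Tnf, Tlr7, Hmox1, Tsc22d3, Tmem119, Lag3 and others) were chosen after their values were seen, and a few genes under the rule are not reported here. Alternatives were other pseudocounts (0.1 and 5), filters, scalings, a replicate block, fits of the compared groups alone and leaving out each sample.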

Additional observations from a re-analysis of the deposited data

Results flagged for a closer look

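In 10 of 189 genes screened, 1 of the 4 7aaRGD samples stood apart from the other 3 by Dixon's criterion, which chance alone meets in about 1 of 20 groups, a share close to the one found. 7aaRGD sample 1 was the highest for Fkbp5 (93.5 RPKM, next 55.5), Gpx3 (68.6, next 30.1) and Fcgr3 (1280.3, next 994). 7aaRGD sample 2 was the lowest for Dusp1 (65.8 RPKM, next 108), Tlr7 (68.2, next 99.7), Tpi1 (61.8, next 75.4) and Vsir (194, next 249). 7aaRGD sample 3 was the lowest for Fcgr1 (145 RPKM, next 180), and 7aaRGD sample 4 was the highest for Tnf (36.4 RPKM, next 19.97) and Pecam1 (3.55, next 2.80). The anti-PD-1 and combination groups, with 3 samples each, were not screened, and of the vehicle values given in the text none stood apart in this way. No interaction between the antibody and the peptide passed the adjusted threshold.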

How the results depend on the processing

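Counts of genes higher and lower in the combination stayed within 1.5 times of 1269 and 2292 under all alternatives except a log2 fold change of at least 1, which left 209 and 110 (and 91 and 41 for anti-PD-1 against vehicle). Leaving out 1 sample gave 910 to 1280 higher and 1650 to 2278 lower for the combination, and 608 to 1104 higher and 747 to 1149 lower for anti-PD-1 against vehicle, with both lowest values of the latter without anti-PD-1 sample 2. The interaction had 0 to 3 calls, the latter without combination sample 2. With 9 residual degrees of freedom, the number of dimensions that the residuals span, 1141 and 2055 genes were called. Among genes named in the text, signs turned only where no call was made. Tmem119 (-0.04) was 0.033 with median-of-ratios scaling and -0.14 to 0.11 with 1 sample left out, Itgb3 (-0.19) was -0.52 to 0.087 and Ms4a7 (0.14) was -0.12 to 0.33. Of 928 medians of gene lists under these alternatives, 32 moved by more than the spread between samples, mostly with another pseudocount or filter. The main fit held no replicate block, since the labels name no shared litter or batch. Samples of 7aaRGD and the combination with the same replicate number had deviations that correlated at 0.064, 0.28 and 0.366. Of these 3 pairs 2 were above 0.1, and they were the highest of the 19 same-number pairs among the 4 groups. Whether the numbers pair samples was not tested. The replicate block gave 1125 higher and 1880 lower genes. Unknown depth limits what can be said of weakly expressed genes such as those of lymphocytes.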

Other observations

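Several genes outside the lists were examined after their values had been seen, so their values are given as a description. Cirbp, an RNA-binding protein induced by mild cold, was at 11.3, 18.8, 26.5 and 21.5 RPKM in the 7aaRGD samples and 7.19, 4.52 and 6.90 RPKM in the combination samples (log2 difference -1.47). Rbm3, its relative, was at 71.7, 91.9, 69.6 and 65.7 and 29.7, 35.1 and 30.1 RPKM (log2 difference -1.21). Both also differed in that direction between anti-PD-1 and vehicle (-1.20 and -1.06). Tmsb10, which binds actin monomers, was at 82.4, 51.3, 88.4 and 74.0 and 358, 265 and 295 RPKM (log2 difference 2.05). The groups were separate for all 3 genes.

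Lists for 3 other processes were added after the values were seen. Of 14 tested of 18 listed circadian clock genes, 5 were lower (Per1, Cry1, Per2, Cry2 and Clock, 3 of them with another scaling, or without combination sample 1 or 3) and 2 higher (Nfil3 and Bhlhe40). Cry1, a repressor of the clock, was at 7.02, 6.29, 6.92 and 5.17 RPKM with 7aaRGD and 2.54, 3.78 and 2.94 RPKM with the combination. Of 63 tested of 68 listed translation initiation and elongation factors, 29 were lower and 1 higher (median -0.18 on the log2 scale), against 18 lower with median-of-ratios scaling. Of 8 tested of 13 listed mitochondrially encoded proteins, 2 were lower, and 7 were lower without 7aaRGD sample 2, which was the lowest of its group for mt-Cytb at 1280.1 RPKM.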
